A study of Mus musculus with 12 samples.

Results

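The 34 genes described here drive cell division: they copy DNA, carry the cell from G1 into S phase, run mitosis or restrain the cyclin-dependent kinases (CDKs). They were taken by gene symbol from a count table of 24964 genes, and every one of the 34 was found and passed the filter on low counts, which left 15561 genes tested. They fall into 10 replication genes, 4 G1 and S cyclin genes, 17 mitosis genes and 3 CDK inhibitor genes. RNA came from mouse uterine tissue at 13.5 days post coitum, in 12 libraries, 4 per group. The PGR-A OE group carried the genotype Myh11Cre; LSLPGRA/+ and overexpressed progesterone receptor isoform A in the myometrium, the smooth muscle of the uterus. The PGR-B OE group carried Myh11Cre; LSLPGRB/+ and overexpressed isoform B there. The control group carried Myh11Cre alone, so all 3 groups share the Cre driver, which acts in smooth muscle. The labels do not say that the libraries of a group came from separate animals.

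In a dividing cell, the MCM helicase is loaded onto DNA in G1 by factors such as Cdc6, is activated by the cyclin E and CDK system, and opens the double helix for polymerases held by the Pcna clamp. The transcription factor E2f1 and its relatives switch on the replication genes at the start of S phase, while genes of mitosis peak later, in G2 and M. In the pregnant uterus, cell division is a feature of early myometrial growth and of the decidua, and progesterone, acting through its receptor, is known to control both.

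Promoter sequences are shown because replication and mitosis genes, which differed in level between libraries, are known to be controlled through different promoter elements. RefSeq windows of build GRCm38.p6, each of 300 bases (250 before and 50 after the annotated start), were found for 26 of the 34 genes. Both strands were searched. The CHR element, TTTGAA, bound by the complex that represses mitosis genes outside G2 and M, lay in the windows of 10 of 14 mitosis genes, 1 of 9 replication genes and 17.8% of 32544 distinct promoter windows of the mouse. An E2F site lay in 6 of 9 replication genes, 3 of 14 mitosis genes and 9.64% of all windows. The letters searched for as an E2F site were TTCCCGC and, as a second form, TTGGCGC, with TTCGCGC as another and finally TTGCCGC, and these can overlap each other on opposite strands. CCAAT, which the factor NF-Y binds, lay in 13 of 14 mitosis genes, 7 of 9 replication genes and 37.4% of all windows. A match is only a string of letters in this window. The stretches below are the 200 bases before the start, 5′ to 3′, with CHR elements and E2F sites in capitals. Mcm6 and Mcm5, subunits of the helicase, are the replication genes shown and lie at chr1:128359706-128359905 (minus strand) and chr8:75109309-75109508 (plus strand). Cdk1 and Kif11, the mitotic kinase and a spindle motor, are the mitosis genes shown and lie at chr10:69352913-69353112 (minus strand) and chr19:37376182-37376381 (plus strand).
Mcm6: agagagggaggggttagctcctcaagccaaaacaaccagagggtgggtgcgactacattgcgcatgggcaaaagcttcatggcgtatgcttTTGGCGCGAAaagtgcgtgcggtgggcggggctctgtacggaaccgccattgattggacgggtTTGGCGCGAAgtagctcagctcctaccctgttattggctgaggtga
Mcm5: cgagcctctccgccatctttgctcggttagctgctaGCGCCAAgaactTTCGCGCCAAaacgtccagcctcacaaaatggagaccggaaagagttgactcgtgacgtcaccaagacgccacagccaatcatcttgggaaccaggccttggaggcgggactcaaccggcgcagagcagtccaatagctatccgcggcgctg
Cdk1: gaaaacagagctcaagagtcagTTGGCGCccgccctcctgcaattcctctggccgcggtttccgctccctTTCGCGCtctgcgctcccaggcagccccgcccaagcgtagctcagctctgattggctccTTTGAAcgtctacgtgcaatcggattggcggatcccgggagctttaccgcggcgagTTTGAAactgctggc
Kif11: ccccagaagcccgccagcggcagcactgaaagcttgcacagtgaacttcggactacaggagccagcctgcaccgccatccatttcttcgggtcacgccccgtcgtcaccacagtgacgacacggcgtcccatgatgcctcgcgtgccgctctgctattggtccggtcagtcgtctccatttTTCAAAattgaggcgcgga
Mcm6 and Mcm5 hold E2F sites and no CHR element in these stretches, Kif11 holds a CHR element and no E2F site, and Cdk1 holds both. These genes do not stand for every gene of their lists, and the shares above are for the longer windows. In the same stretch Mcm2, Mcm3, Pcna, Rrm2 and E2f1 have no E2F site, and Mcm2 has a CHR element. Bub1, Bub1b, Aurka, Plk1, Cenpe, Cenpf, Birc5 and Ccnb1 have no CHR element there.

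Depth differed little, from 31872534 to 33078483 counts per library. The receptor gene Pgr (chromosome 9, 8899833 to 8968611, GRCm38) was the check of the labels: it was higher than in every control in both overexpression groups, at 199.7 ± 38.5 CPM in PGR-A OE, 223 ± 26.5 CPM in PGR-B OE and 121 ± 16.5 CPM in control libraries (SD, n = 4 each). CPM is the count relative to the scaled size of the library. Between PGR-B OE and PGR-A OE Pgr differed by 0.16 on the log2 scale (edgeR adjusted p = 0.821). A count per gene checks overexpression against control, but it cannot tell isoform A from isoform B. Smooth muscle markers were strong in every library, with a summed level of 11862.9 to 22650.6 CPM. Trophoblast markers, of which 3 of 8 passed the filter, had a summed level of 1.03 to 3.61 CPM in PGR-A OE, 1.53 to 5.38 CPM in PGR-B OE and 0.870 to 14.6 CPM in control libraries, and Gcm1 and Psg21 among them were listed at 0 in all 12. Erythroid markers, of which 2 of 8 passed, had a summed level of 10.4 to 33.0 CPM in PGR-A OE, 6.38 to 15.5 CPM in PGR-B OE and 8.43 to 15.5 CPM in control libraries. Nearly all of it was Alas2, the haem synthesis gene of red cells, highest in PGR-A OE replicate 4 at 32.0 CPM, while the globin genes Hba-a1, Hba-a2, Hbb-bs and Hbb-bt were listed at 0 in all 12. The first principal component, with 22.8% of the variance, set PGR-A OE replicate 4 (64.6) and control replicate 4 (-32.6) apart from the rest. Control replicate 4 bears on many results below. The medians of the replication, G1 and S cyclin and mitosis lists, and of further genes of these pathways, are given with and without it.

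No gene of the 34 passed the test in any of the 3 comparisons. In PGR-A OE against control edgeR called 0 of 34 at an adjusted p under 0.05, where it called 0.655% of all genes tested, and the other tools also called 0, where limma voom called 0.611% and DESeq2 3.64% of all genes. At an unadjusted p under 0.05 there were 2 of 34 against 15.4% of all genes. For PGR-B OE and control edgeR called 0 of 34 against 0.308% of all genes, voom called 0 against 0.244%, and DESeq2 called 1, Cdkn1c, against 1.43%. At an unadjusted p under 0.05 there were 2 of 34 against 9.28%. Between PGR-B OE and PGR-A OE edgeR called 0 of 34 against 0.116% of all genes, voom called 0 against 0.135% and DESeq2 0 against 0.813%, and 0 of 34 had an unadjusted p under 0.05 against 8.04%. The first and second comparisons share the 4 control libraries.

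**Figure D1:**
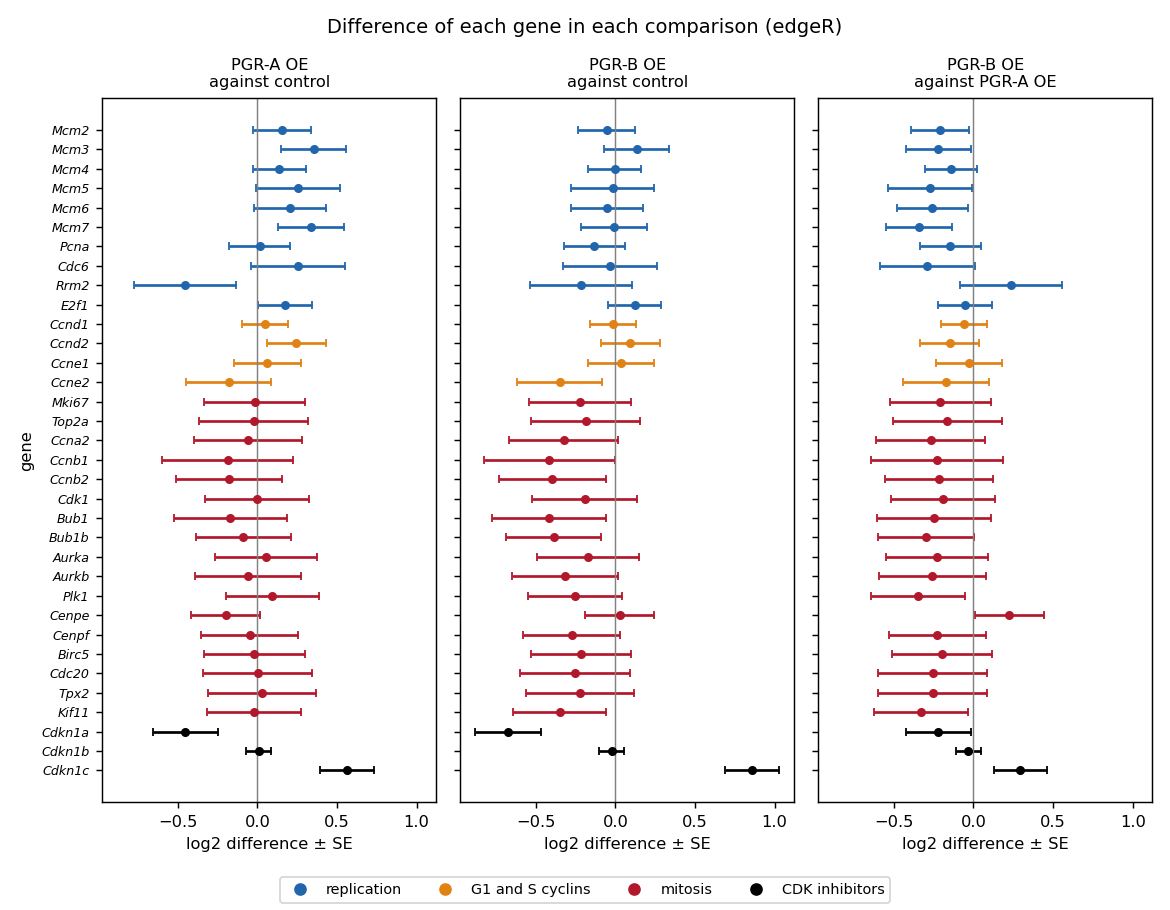
Log2 difference (x axis, with SE) of each of the 34 genes (y axis) in the 3 comparisons, coloured by role, from the edgeR fit. Cdkn1c lies farthest to the right in both comparisons with control, at 0.56 in PGR-A OE and 0.86 in PGR-B OE, and Cdkn1a lies farthest to the left in PGR-B OE against control, at -0.67.

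The replication genes sat a little higher on average in PGR-A OE libraries, within the spread of the controls, and the size of that difference depended on single libraries. Of the 10, 9 had a positive difference in PGR-A OE against control, with a median of 0.19 on the log2 scale, beside 50.1% positive and a median of 0.00051 over all genes tested. Against the same controls, PGR-B OE had a positive difference in 2 of 10 genes with a median of -0.026, beside 48.8% and -0.0052. Between PGR-B OE and PGR-A OE 1 of 10 was positive with a median of -0.21, beside 51.2% and 0.0045. In bulk tissue, fewer dividing cells and less RNA per dividing cell cannot be told apart. Without control replicate 4 the median was 0.38 for PGR-A OE and 0.20 for PGR-B OE over the other controls, and 0 genes were called for either. Without PGR-A OE replicate 2 the median for PGR-A OE against control was 0.069, and leaving out PGR-A OE replicate 1 gave 0.098. Leaving out control replicate 1 gave 0.11 and control replicate 3 gave 0.092, while it was 0.31 without PGR-A OE replicate 3. The median for PGR-B OE over PGR-A OE was -0.083 once PGR-A OE replicate 2 was dropped, -0.13 once replicate 1 of that group was dropped and -0.33 with its replicate 3 dropped. For PGR-B OE over control the other fits gave medians of -0.15 to 0.036, the highest of them with PGR-B OE replicate 3 dropped.

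Markers of smooth muscle and endothelium also sat higher in PGR-A OE libraries on average. Smooth muscle markers were positive in 8 of 8 genes against control, with a median of 0.30, and endothelial markers in 7 of 7, with a median of 0.17. The summed level of smooth muscle markers was 16451 to 22651 CPM in PGR-A OE, 11863 to 15694 CPM in PGR-B OE and 12218 to 16076 CPM in control libraries. That of endothelial markers was 647 to 755 CPM in PGR-A OE, 573 to 702 CPM in PGR-B OE and 599 to 701 CPM in control libraries. Of these markers edgeR called 0 in PGR-A OE against control, where it called 0.655% of all genes. DESeq2 called 2 smooth muscle and 1 endothelial gene, against 3.64% of all genes. For 3 of 8 smooth muscle and 2 of 7 endothelial genes PGR-A OE and control libraries did not overlap, against 10.6% of all genes. For PGR-B OE over PGR-A OE 0 of 8 and 0 of 7 were positive, with medians of -0.40 and -0.17. Within PGR-A OE, replicates 1 to 4, the replication genes had a summed level of 583, 585, 359 and 369 CPM. In the same order smooth muscle markers had 16451, 17026, 19349 and 22651 CPM, lowest where the replication genes were highest. Endothelial markers had 755, 737, 647 and 714 CPM, highest in replicates 1 and 2 as the replication genes were. The summed level of decidual markers, taken up below, was 1422, 1394, 326 and 121 CPM, also highest in replicates 1 and 2. Among the controls, replicate 4 was highest for the replication genes, at 687 CPM, and for the decidual sum, at 5228 CPM. PGR-B OE differed. Its replicate 4 was lowest for the replication genes, at 395 CPM, and highest for the decidual sum, at 1111 CPM. The part of the marker differences in the levels of the replication genes was not tested.

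Mcm3 (chromosome 1, 20802968 to 20820312), a helicase subunit, had 50.0, 51.6, 29.4 and 36.3 CPM in the PGR-A OE libraries, 40.6, 32.9, 35.4 and 34.9 CPM in the PGR-B OE libraries and 26.3, 31.1, 26.6 and 47.0 CPM in the controls. PGR-A OE replicates 1 and 2 and control replicate 4 were the high libraries, and all 3 groups overlapped. The difference was 0.35 in PGR-A OE (SE 0.20, edgeR adjusted p = 0.433) and 0.13 in PGR-B OE, and without control replicate 4 it was 0.58 in PGR-A OE and 0.36 in PGR-B OE. Mcm7, another subunit, had 54.5, 53.9, 34.1 and 39.5 CPM in the PGR-A OE libraries, 45.4, 31.7, 32.5 and 33.8 CPM in the PGR-B OE libraries and 30.3, 32.5, 29.2 and 52.1 CPM in the controls. The same 3 libraries were high as for Mcm3, and the other controls lay between 29.2 and 32.5 CPM. Its difference was 0.34 in PGR-A OE and -0.34 between PGR-B OE and PGR-A OE (SE 0.21, edgeR adjusted p = 0.733), and without control replicate 4 the difference in PGR-A OE was 0.57. Mcm2 had 53.0, 62.0, 37.0 and 38.5 CPM in the PGR-A OE libraries, 46.7, 39.0, 39.3 and 39.6 CPM in the PGR-B OE libraries and 37.5, 43.4, 33.8 and 56.3 CPM in the controls. Mcm6 had 82.8, 89.2, 48.5 and 57.8 CPM in the PGR-A OE libraries, 68.5, 59.0, 52.5 and 52.8 CPM in the PGR-B OE libraries and 50.1, 60.5, 43.6 and 86.9 CPM in the controls. In both genes PGR-A OE replicate 2 was the highest library and control replicate 3 the lowest, and the groups overlapped.

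Rrm2, the small subunit of ribonucleotide reductase that makes the building blocks of DNA, had 136, 117, 79.9 and 47.8 CPM in the PGR-A OE libraries, 119, 113, 127 and 89.6 CPM in the PGR-B OE libraries and 100.2, 103, 98.4 and 220.1 CPM in the controls. It was the only replication gene with a negative difference in PGR-A OE, -0.45 (SE 0.32, edgeR adjusted p = 0.528). PGR-A OE replicate 4 was the lowest of the 12 libraries and control replicate 4 the highest. Without control replicate 4 the difference was -0.078, and without PGR-A OE replicate 4 it was -0.23. Pcna, the polymerase clamp, had 79.1, 79.7, 56.8 and 60.5 CPM in the PGR-A OE libraries, 66.3, 79.3, 49.4 and 54.7 CPM in the PGR-B OE libraries and 58.2, 64.2, 56.0 and 95.0 CPM in the controls. Control replicate 4 was again the highest library and the groups overlapped. E2f1, the transcription factor of the G1 to S step, had 16.9, 17.0, 11.3 and 11.5 CPM in the PGR-A OE libraries, 13.2, 12.8, 15.1 and 13.6 CPM in the PGR-B OE libraries and 10.3, 12.3, 11.6 and 16.2 CPM in the controls. Its differences were 0.17 in PGR-A OE and 0.12 in PGR-B OE, both positive and neither called, and without control replicate 4 they were 0.32 and 0.27. Mcm4 ran over 29.7 to 49.3 in PGR-A OE, 32.5 to 41.4 in PGR-B OE and 30.9 to 46.0 in control libraries, in CPM. Mcm5 ran over 27.8 to 56.0 in PGR-A OE, 30.9 to 43.2 in PGR-B OE and 25.3 to 56.6 in control libraries. Cdc6, which loads the helicase, ran over 4.62 to 9.85 in PGR-A OE, 5.28 to 7.46 in PGR-B OE and 4.23 to 10.5 in control libraries. Counts of Pcna are uncertain, since Pcna-ps1 and Pcna-ps2 are annotated pseudogenes of it.

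Of 38 other replication genes, 0 passed the test in either direction in any comparison, 29 were positive in PGR-A OE against control with a median of 0.12, 8 were positive with PGR-B OE over control with a median of -0.073, and 7 with PGR-B OE over PGR-A OE with a median of -0.15. For 31 of the 38 the highest library was control replicate 4, and without it 35 were positive for PGR-A OE, at a median of 0.38, and 33 for PGR-B OE, with a median of 0.23. The median of 0.12 became 0.036 when PGR-A OE replicate 1 was dropped, 0.057 when its replicate 2 was dropped and 0.21 when its replicate 3 was dropped. Dropping 1 of the first 3 controls gave 0.033 for replicate 1, 0.065 for replicate 2 and 0.035 for replicate 3. The median of -0.15 became -0.048 with PGR-A OE replicate 1 dropped and -0.085 with its replicate 2 dropped, and it was -0.25 with its replicate 3 and -0.24 with its replicate 4 dropped. Pole, the catalytic subunit of a leading strand polymerase, had the lowest p of them in both comparisons with control. It averaged 21.0 ± 2.68 CPM in PGR-A OE, 21.3 ± 4.63 CPM in PGR-B OE and 28.9 ± 5.71 CPM in control libraries (SD, n = 4 each). Its differences were -0.46 in PGR-A OE and -0.44 in PGR-B OE, with adjusted p = 0.217 and 0.435 by edgeR. Leaving out single libraries gave -0.51 to -0.31 for PGR-A OE and -0.60 to -0.29 for PGR-B OE. In each comparison with control 1 of the 38 had no overlap, against 10.6% of all genes for PGR-A OE and 5.67% for PGR-B OE. For PGR-A OE it was Pole, which was lower. For PGR-B OE it was Cdc7, a replication kinase, which was higher. Cdc7 had 24.42, 23.65, 25.88 and 26.59 CPM in the PGR-B OE libraries and 17.18, 15.80, 16.54 and 23.61 CPM in the controls.

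The G1 and S cyclin genes showed little. In PGR-A OE against control 3 of 4 were positive (median 0.054), or 4 with control replicate 4 left out (median 0.20). For PGR-B OE over control 2 were positive (median 0.011), or 3 with that library left out (median 0.11). With that library or without it 0 were called. Ccnd2, a D cyclin that activates CDK4 and CDK6, had 29.4, 30.7, 21.8 and 44.4 CPM in the PGR-A OE libraries, 36.4, 27.3, 23.2 and 26.9 CPM in the PGR-B OE libraries and 28.2, 25.3, 26.9 and 26.1 CPM in the controls. PGR-A OE replicate 4 stood highest and the 4 controls lay close together. The difference was 0.24 in PGR-A OE (SE 0.18, edgeR adjusted p = 0.557) and 0.095 in PGR-B OE. The difference in PGR-A OE was 0.034 with its replicate 4 left out and 0.39 with its replicate 3 left out. Ccne2, a cyclin E, had 4.81, 5.50, 2.79 and 3.58 CPM in the PGR-A OE libraries, 3.95, 4.85, 2.87 and 3.15 CPM in the PGR-B OE libraries and 3.61, 4.74, 3.60 and 6.94 CPM in the controls. Control replicate 4 was the highest library, and the difference was -0.35 in PGR-B OE (SE 0.27, edgeR adjusted p = 0.753). Leaving that library out gave -0.10. Ccnd1, the cyclin D that answers growth signals, had 209, 169, 168 and 173 CPM in the PGR-A OE libraries, 185, 195, 147 and 162 CPM in the PGR-B OE libraries and 138, 185, 151 and 222 CPM in the controls. Ccne1, the other cyclin E, had 6.32, 7.40, 4.53 and 4.44 CPM in the PGR-A OE libraries, 5.75, 7.08, 4.58 and 4.87 CPM in the PGR-B OE libraries and 4.87, 4.61, 5.15 and 7.09 CPM in the controls. For both, all groups overlapped. Ccne2 shares 17.4% of its exonic bases with Ints8, and Ccnd1 shares 23.4% with LTO1, on opposite strands, so these counts are uncertain.

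Of 20 other genes of the G1 and Rb pathway, 19 were tested and 0 passed in any comparison. In PGR-A OE against control 7 were positive (median -0.059), or 11 with control replicate 4 left out (median 0.042). For PGR-B OE over control 4 were positive (median -0.10), or 8 with that library left out (median -0.052). E2f5, a repressive E2F, averaged 23.3 ± 3.17 CPM in PGR-A OE and 30.3 ± 2.79 CPM in control libraries (SD, n = 4 each), without overlap, with a difference of -0.38 and adjusted p = 0.186 by edgeR. Cdk6, a kinase of the D cyclins, averaged 44.4 ± 7.53 CPM in PGR-A OE, 44.6 ± 9.09 CPM in PGR-B OE and 58.8 ± 7.62 CPM in control libraries, with adjusted p = 0.244 and 0.458 by edgeR. Rb1, the retinoblastoma gene that holds E2F in check, averaged 22.1 ± 1.35 CPM in PGR-B OE and 26.4 ± 2.90 CPM in control libraries, without overlap, with a difference of -0.26 and adjusted p = 0.398 by edgeR. In each comparison with control 1 of 19 genes had no overlap, against 10.6% of all genes for PGR-A OE and 5.67% for PGR-B OE. Between PGR-B OE and PGR-A OE the lowest p values were those of Ccnd3, at a difference of -0.19 (adjusted p = 0.556 by edgeR), and Cdc25a, at 0.24 (adjusted p = 0.619 by edgeR).

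The mitosis genes varied mostly within groups, and control replicate 4 stood highest. It held the highest value of the 12 libraries for 17 of 17 mitosis genes and for 39 of 40 other mitosis genes, but for 4 of 10 replication genes, where PGR-A OE replicate 2 was highest for 5. Its level was 2.34 times the median of the other 11 libraries over the mitosis genes (median of the 17 genes) and 1.52 times over the replication genes. Within the control group the highest library was 2.96 times the lowest, as the median of the mitosis genes, against 1.27 times over all genes tested. The same ratio was 1.99 in PGR-A OE and 1.55 in PGR-B OE, against 1.31 and 1.34 over all genes.

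**Figure D2:**
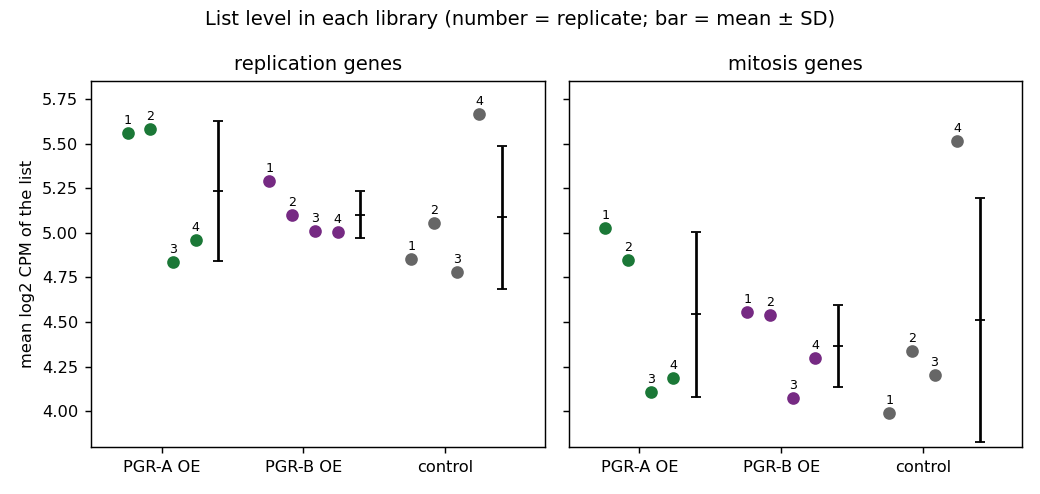
Mean log2 CPM of the 10 replication genes (left) and the 17 mitosis genes (right) in each library (y axis) by group (x axis), numbered by replicate, with group mean ± SD. Control replicate 4 is at 5.52 for mitosis genes, above every other library, and at 5.66 for replication genes, beside PGR-A OE replicates 1 and 2 at 5.56 and 5.58.

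The mean log2 CPM of the mitosis genes was 5.02, 4.85, 4.11 and 4.19 in PGR-A OE, 4.56, 4.54, 4.07 and 4.30 in PGR-B OE and 3.99, 4.34, 4.20 and 5.52 in control libraries, replicates 1 to 4. The mean of the mitosis genes minus that of the replication genes was -0.54 to -0.94 on the log2 scale in 11 libraries and -0.15 in control replicate 4, a step from the nearest library about as wide as the range of the 11. The decidual marker list had a summed level of 1422, 1394, 326 and 121 CPM in PGR-A OE, 1031, 855, 912 and 1111 CPM in PGR-B OE and 288, 561, 573 and 5228 CPM in control libraries, replicates 1 to 4. Prl8a2, a decidual prolactin, made up most of it in control replicate 4, with 5054 CPM, while PGR-A OE replicate 4 had only 5.02 CPM of it. Of the 6 decidual markers 5 passed the filter. In their groups PGR-A OE replicates 1 and 2 and control replicate 4 were high both for the mitosis genes and for this sum, which follows Prl8a2. PGR-B OE did not show the same order: replicate 2 was among its high libraries for the mitosis genes and the lowest for the sum. The other decidual markers differed among themselves. Hand2 and Cryab were also highest within their groups in these libraries, in places by little. In PGR-A OE, replicates 1 to 4, Hand2 was at 48.2, 50.8, 38.8 and 46.9 CPM and Cryab at 87.7, 103, 85.7 and 54.1 CPM. In the controls, in the same order, Hand2 was at 31.7, 32.0, 36.1 and 40.9 CPM and Cryab at 74.0, 70.7, 101 and 125 CPM. Of all 12 libraries Hand2 was highest in PGR-B OE replicate 1, at 78.2 CPM. Bmp2, a growth factor of the decidua, was instead at its lowest in control replicate 4 among the controls, at 4.76 CPM, and in PGR-A OE replicate 1 within that group, at 4.54 CPM. Wnt4, a signal of the decidua, was highest in PGR-A OE replicate 4, at 9.61 CPM. Prl3c1, the decidual marker below the filter, was highest in control replicate 4, at 1.76 CPM, and at 0 to 0.885 CPM elsewhere. Tpbpa, a trophoblast marker, was at 12.3 CPM in control replicate 4 and at 0.161 to 1.62 CPM in the other 11 libraries. The summed trophoblast level was 14.6 CPM there, most of it Tpbpa, against 0.870 to 5.38 CPM elsewhere. The other trophoblast markers did not peak in control replicate 4. Ascl2 was at its lowest there, at 0.447 CPM, and Prl2c2 was at 1.85 CPM there and 3.90 CPM in PGR-B OE replicate 3. Prl3b1, Prl3d1 and Hand1, below the filter, were also highest in PGR-B OE replicate 3. The part of decidual or trophoblast tissue in the levels of the mitosis or replication genes was not tested.

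**Figure D3:**
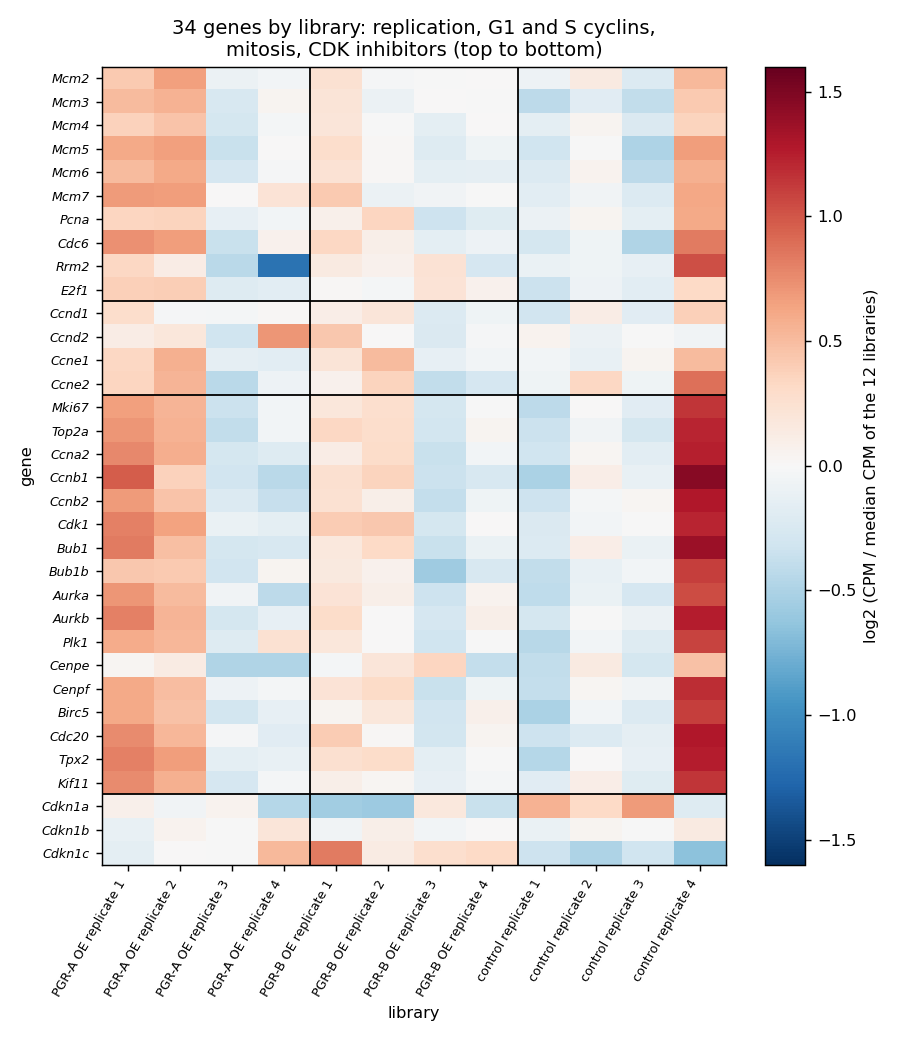
Level of each of the 34 genes (rows, grouped by role) in each library (columns, by group), as log2 of CPM over the gene's median of 12 libraries. The column of control replicate 4 is above the median for all 17 mitosis genes, and PGR-A OE replicates 1 and 2 are raised over most genes of replication and mitosis.

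In PGR-A OE against control 4 of 17 mitosis genes had a positive difference, with a median of -0.024. For PGR-B OE over control it was 1 of 17, with a median of -0.25, and for PGR-B OE over PGR-A OE 1 of 17, with a median of -0.23. The signs changed without control replicate 4: 16 of 17 were then positive for PGR-A OE, with a median of 0.43, and 17 of 17 for PGR-B OE, with a median of 0.20. No mitosis gene was called with it or without it. Leaving out control replicate 1 instead gave medians of -0.20 for PGR-A OE and -0.42 for PGR-B OE, and leaving out PGR-A OE replicate 1 gave -0.19 for PGR-A OE. Dropping PGR-B OE replicate 3 gave -0.16 for PGR-B OE. For PGR-A OE the median also turned positive with its replicate 3 dropped, at 0.10, and with its replicate 4 dropped, at 0.074. The median for PGR-B OE over PGR-A OE shrank to -0.042 when PGR-A OE replicate 1 was dropped, and was -0.15 with its replicate 2 dropped and -0.13 with PGR-B OE replicate 3 dropped. It reached -0.36 and -0.37 when PGR-A OE replicates 3 and 4 were dropped in turn. Leaving out both PGR-A OE replicate 4 and control replicate 4 gave 17 of 17 positive and a median of 0.55 in PGR-A OE against control, again with 0 called. That pair was chosen after the data were seen.

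**Figure D4:**
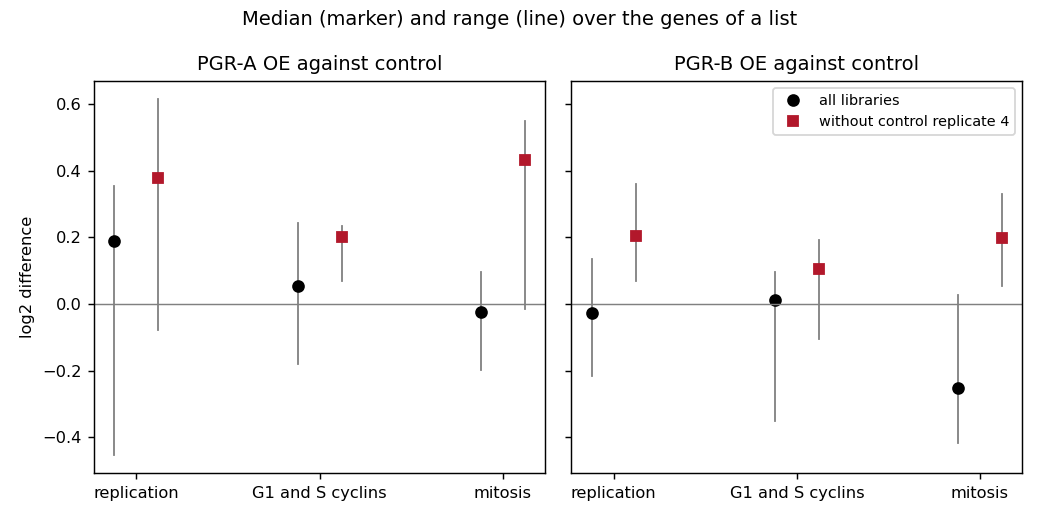
Median (marker) and range (line) of the log2 differences (y axis) over the genes of each list (x axis), with all libraries (black circles) and without control replicate 4 (red squares). The median of the mitosis genes is -0.024 with all libraries and 0.43 without that one for PGR-A OE, and -0.25 and 0.20 for PGR-B OE.

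Bub1 and Bub1b, kinases of the spindle checkpoint, were among the mitosis genes with the lowest p. Bub1 had 16.5, 12.8, 7.58 and 7.73 CPM in the PGR-A OE libraries, 10.4, 11.5, 7.19 and 8.54 CPM in the PGR-B OE libraries and 7.90, 9.89, 8.56 and 23.8 CPM in the controls. Bub1b had 27.1, 26.9, 16.2 and 20.7 CPM in the PGR-A OE libraries, 22.5, 21.0, 13.5 and 16.8 CPM in the PGR-B OE libraries and 15.2, 18.6, 19.5 and 43.2 CPM in the controls. Control replicate 4 was the highest library for both, and the other 3 controls lay inside the range of the overexpression libraries. The difference of Bub1b in PGR-B OE was -0.39 (SE 0.30, edgeR adjusted p = 0.757), and without control replicate 4 it was 0.053. Ccnb2, a cyclin B that activates Cdk1, had 23.5, 20.2, 12.7 and 11.3 CPM in the PGR-A OE libraries, 17.4, 15.6, 11.3 and 14.0 CPM in the PGR-B OE libraries and 11.7, 14.3, 15.1 and 35.6 CPM in the controls. Its difference was -0.39 in PGR-B OE and, without control replicate 4, 0.091. Kif11, the spindle motor shown above, had 34.9, 30.6, 17.1 and 20.2 CPM in the PGR-A OE libraries, 21.9, 21.0, 18.8 and 20.1 CPM in the PGR-B OE libraries and 18.2, 22.3, 18.1 and 45.7 CPM in the controls. PGR-B OE libraries lay in a narrow band, and the difference was -0.35 (SE 0.29, edgeR adjusted p = 0.779). Leaving out control replicate 4 gave 0.068.

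Plk1, a kinase of mitotic entry, had 26.3, 25.2, 15.1 and 20.7 CPM in the PGR-A OE libraries, 19.8, 17.5, 14.0 and 17.3 CPM in the PGR-B OE libraries and 12.8, 16.9, 15.1 and 36.8 CPM in the controls. Its difference between PGR-B OE and PGR-A OE was -0.35 (SE 0.29, edgeR adjusted p = 0.812), and the groups overlapped. Cenpe, a kinetochore motor, had 23.3, 25.0, 16.3 and 16.2 CPM in the PGR-A OE libraries, 22.2, 26.0, 28.8 and 17.5 CPM in the PGR-B OE libraries and 17.4, 25.1, 18.8 and 31.5 CPM in the controls. It was the mitosis gene in which control replicate 4 stood out least, at 1.42 times the median of the other libraries, and the only one with a positive difference between PGR-B OE and PGR-A OE, at 0.23, or 0.12 without PGR-B OE replicate 3. The largest such ratio was 2.97, in Ccnb1, the other cyclin B.

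The remaining mitosis genes are given by their range in CPM, and control replicate 4 was the highest library for each. Mki67, the proliferation marker, ran over 61.1 to 122 in PGR-A OE, 63.7 to 92.8 in PGR-B OE and 58.0 to 171 in control libraries. Top2a, the topoisomerase that untangles chromosomes, ran over 44.2 to 95.3 in PGR-A OE, 47.3 to 73.4 in PGR-B OE and 46.0 to 136 in control libraries. Cdk1 ran over 21.9 to 42.7 in PGR-A OE, 20.1 to 33.0 in PGR-B OE and 20.8 to 57.0 in control libraries, and its upper control value was that of replicate 4. Ccna2, the S and G2 cyclin, ran over 27.4 to 57.1 in PGR-A OE, 26.1 to 40.9 in PGR-B OE and 26.7 to 79.2 in control libraries, and Ccnb1 over 9.49 to 24.9 in PGR-A OE, 10.1 to 16.3 in PGR-B OE and 9.03 to 35.1 in control libraries. Aurka and Aurkb, the Aurora kinases, ran over 8.28 to 18.1 in PGR-A OE, 8.83 to 12.9 in PGR-B OE and 8.35 to 22.9 in control libraries and over 9.51 to 20.2 in PGR-A OE, 9.57 to 14.2 in PGR-B OE and 9.54 to 27.6 in control libraries. In each of these genes the controls overlapped both overexpression groups. Cdc20, which switches on the anaphase ligase, ran over 17.7 to 33.9 in PGR-A OE, 16.4 to 26.6 in PGR-B OE and 16.1 to 48.9 in control libraries. Tpx2, a spindle factor, ran over 24.8 to 48.1 in PGR-A OE, 24.8 to 33.8 in PGR-B OE and 20.1 to 66.0 in control libraries. Cenpf, a kinetochore protein, ran over 13.9 to 22.4 in PGR-A OE, 11.5 to 18.3 in PGR-B OE and 11.3 to 33.3 in control libraries. Birc5, or survivin, ran over 13.0 to 24.2 in PGR-A OE, 12.9 to 18.1 in PGR-B OE and 11.3 to 34.3 in control libraries, with the same library on top. Counts of Ccnb1 and Ccnb2 are uncertain, since Ccnb1-ps and Ccnb2-ps are annotated, and Ccna2 shares 12.5% of its exonic bases with Exosc9.

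Of 40 other mitosis genes, 0 passed in any comparison. In PGR-A OE against control 18 were positive with a median of -0.0057, for PGR-B OE over control 1 with a median of -0.27, and for PGR-B OE over PGR-A OE 3 with a median of -0.23. The highest library was control replicate 4 for 39 of the 40, at 2.29 times the median of the other 11 libraries (median of the 40 genes). Without it the signs turned round: 39 were positive for PGR-A OE, with a median of 0.43, and 39 for PGR-B OE, with a median of 0.17, and 0 were called. The median for PGR-B OE over PGR-A OE was -0.055 with PGR-A OE replicate 1 dropped, -0.14 with its replicate 2 dropped and -0.38 with its replicate 3 dropped.

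Among the CDK inhibitors, Cdkn1c was the only gene of the 34 whose overexpression and control libraries did not overlap. Cdkn1c encodes p57, an inhibitor of G1 and S kinases expressed from the maternal allele. It had 23.8, 26.6, 26.2 and 38.0 CPM in the PGR-A OE libraries, 46.8, 29.0, 31.6 and 33.0 CPM in the PGR-B OE libraries and 21.1, 18.7, 21.1 and 16.7 CPM in the controls. Every overexpression library was above every control, which was so for 1 of 34 genes in each comparison with control, against 10.6% of all genes in PGR-A OE and 5.67% in PGR-B OE for groups without overlap in either direction. Between PGR-B OE and PGR-A OE 0 of 34 genes separated, against 3.85% of all genes. In PGR-A OE the difference was 0.56 (SE 0.17, edgeR adjusted p = 0.158), and DESeq2 gave an adjusted p of 0.0515. In PGR-B OE it was 0.86 (SE 0.17, edgeR adjusted p = 0.0688), and DESeq2 gave an adjusted p of 0.000477. PGR-B OE and PGR-A OE differed by 0.30 (adjusted p = 0.723 by edgeR), or by 0.13 with PGR-B OE replicate 1 dropped and 0.46 with PGR-A OE replicate 4 dropped. With each library left out in turn the difference was 0.40 to 0.64 for PGR-A OE and 0.69 to 0.94 for PGR-B OE, and 0 of these fits called it. The gene lies on chromosome 7, 143458339 to 143461050, and it shares 30.7% of its exonic bases with Gm44732 on the other strand, so its counts are uncertain.

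**Figure D5:**
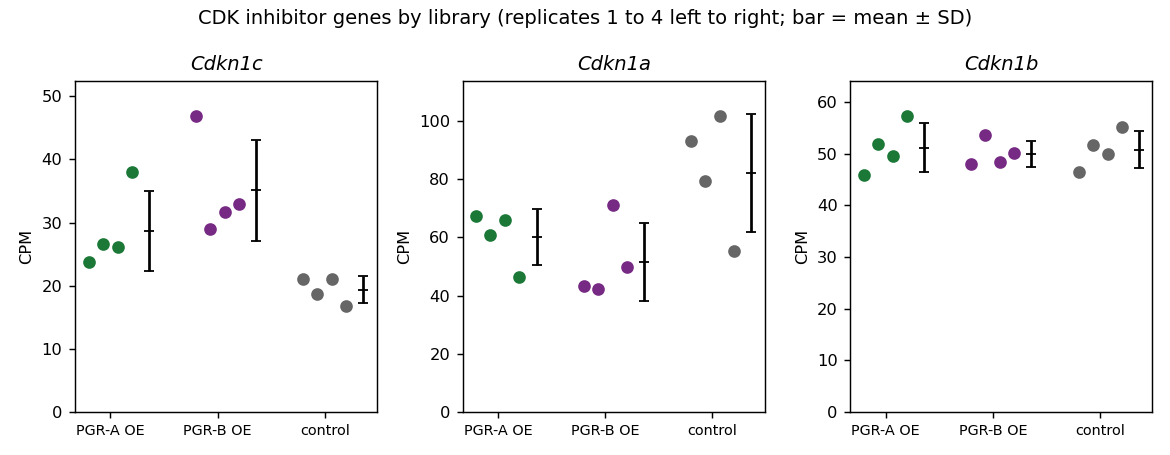
CPM (y axis) of Cdkn1c, Cdkn1a and Cdkn1b in each library by group (x axis), with group mean ± SD. Cdkn1c is 23.8 to 38.0 CPM in PGR-A OE, 29.0 to 46.8 CPM in PGR-B OE and 16.7 to 21.1 CPM in control libraries.

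Cdkn1a, or p21, the inhibitor induced by p53, had a negative difference that did not pass the test. It had 67.3, 61.0, 66.1 and 46.2 CPM in the PGR-A OE libraries, 43.4, 42.3, 71.2 and 49.7 CPM in the PGR-B OE libraries and 93.2, 79.2, 102 and 55.2 CPM in the controls. Control replicate 4 was the lowest control and lay among the overexpression libraries, so the groups overlapped. Its difference was -0.45 in PGR-A OE (SE 0.21, edgeR adjusted p = 0.318) and -0.67 in PGR-B OE (SE 0.21, edgeR adjusted p = 0.317). Without control replicate 4 it was -0.60 and -0.82, and without control replicate 3 it was -0.34 and -0.55. Cdkn1b, or p27, had 46.0, 51.9, 49.7 and 57.3 CPM in the PGR-A OE libraries, 48.0, 53.6, 48.4 and 50.2 CPM in the PGR-B OE libraries and 46.5, 51.7, 50.0 and 55.1 CPM in the controls. Its libraries lay close together in every group, with differences of 0.010 (SE 0.078) in PGR-A OE and -0.023 (SE 0.078) in PGR-B OE.

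Per length of transcript (TPM) the 34 genes span a wide range. In control libraries Rrm2 was the highest at 132 ± 67.7 TPM, followed by Pcna at 119 ± 37.6 TPM and Ccnd1 at 101 ± 26.6 TPM (SD, n = 4 each). These neighbours differed by less than their spread. Cdc6 was the lowest at 2.78 ± 1.40 TPM, beside Ccne2 at 3.24 ± 1.24 TPM. Cdkn1c was at 33.8 ± 9.71 TPM in PGR-A OE, 39.5 ± 11.1 TPM in PGR-B OE and 21.7 ± 1.55 TPM in control libraries.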

How the data were processed

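The authors deposited 1 table of read counts per gene, whole numbers that are not normalized, with a gene length, for 12 libraries. Per the labels' protocols, RNA was purified with Trizol and columns and sequenced from both ends at 75 bp. Per the submitters' processing notes, the tools named are DESeq2, Subread 1.6.4, featureCounts, STAR 2.7.0f and Bowtie2 2.2.5, and the builds GRCm38 and mm10. What each did, which annotation served, strand use and the treatment of reads matching several genes: not given in the sources used here.

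Groups came from the sample titles. Genes were kept by filterByExpr (15561 of 24964), scaled by TMM and fitted over all 12 libraries in 1 robust quasi-likelihood model with edgeR 4.0.16 (R 4.3.3). Benjamini-Hochberg adjustment ran over every tested gene, and the threshold was 0.05. They measure the spread between these samples, which may be technical. The SE is the size of the log2 difference divided by the square root of the F statistic. CPM uses TMM-scaled sizes, list levels are means of log2 CPM with a prior count of 1, and TPM uses the length column. Alternatives were DESeq2 1.42.0, limma 3.58.1 voom, RLE scaling, no filter, the 8 libraries compared, a replicate block and each library left out. Leaving out the pair PGR-A OE 4 and control 4, and leaving out each library for the pathway and marker lists, were added after seeing the data. The fit was tested on simulated data.

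The genes and lists were chosen with earlier results of these data known. By rule, all 34 genes are named, per-library values are given for the 3 with the lowest p of each role in each comparison, and of other pathway lists up to 2 with the lowest p per comparison. Cdc7 was added to these for its lack of overlap. Positions and exon overlaps are from GENCODE M21 on GRCm38, and promoters are from RefSeq on GRCm38.p6, found for 26 of 34 genes. Entries were not found for Ccnd1, Ccnd2, Ccne2, Ccna2, Aurkb, Mcm4, Tpx2 and Cdkn1c.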

Additional observations from a re-analysis of the deposited data

Results flagged for a closer look

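In 102 groups of 4 libraries (34 genes in 3 groups), 18 had a library far from the other 3, beyond the 95% limit of Dixon's test on CPM. Chance gives such a library in about 1 in 20 groups, and genes of 1 library are not independent. Control replicate 4 was the library in 15 of them, and it was high in each: Mcm7 was at 52.1 CPM, Rrm2 at 220.06 CPM, Top2a at 136.2 CPM, Ccna2 at 79.2 CPM and Ccnb2 at 35.6 CPM. In the same library Cdk1 was at 57.0 CPM, Bub1 at 23.8 CPM, Bub1b at 43.2 CPM, Aurka at 22.9 CPM and Aurkb at 27.6 CPM. Plk1 was at 36.8 CPM, Cenpf at 33.3 CPM, Cdc20 at 48.9 CPM, Tpx2 at 66.0 CPM and Kif11 at 45.7 CPM there. PGR-A OE replicate 1 stood apart for Ccnd1, at 208.7 CPM against 168.0 to 173.1 CPM in the other 3. PGR-B OE replicate 1 stood apart for Mcm2, at 46.7 CPM, and for Mcm7, at 45.4 CPM.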

How the results depend on the processing

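No call of edgeR on the 34 genes changed with RLE scaling, no filter on low counts, a fit of the 8 libraries compared, limma voom, the replicate block or leaving out any 1 library. Over 1462 values under alternatives, 1 passed the threshold, that of Cdkn1c with DESeq2 in PGR-B OE against control, so that the count of genes past the threshold there was 1 against 0. Of those values 163 had the opposite sign to the value reported, in 60 of 102 differences, and none of these was past the threshold. The cause of each was not tested. The list medians stayed within 1 SD between replicates in 147 settings. The 1 exception was the mitosis median of 0.55 in PGR-A OE against control without the pair PGR-A OE 4 and control 4. That SD, 0.49 for the mitosis genes, includes control replicate 4 and is a wide limit. Mitosis medians that changed sign without that library, from -0.024 to 0.43 in PGR-A OE and from -0.25 to 0.20 in PGR-B OE, lay within it. With 4 libraries a group, the median SE of a mitosis gene was 0.33 (log2) for PGR-A OE and control, so differences of that size could not be told from the spread. Depth was even across libraries.

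Sign changes by setting were as follows. With DESeq2 Mcm4 was 0.000931 and with RLE scaling 0.000905, both in PGR-B OE against control. With a fit of the 8 libraries compared Cdk1 was 0.000297, and with no filter on low counts Cdc20 was -0.00029, both in PGR-A OE against control. With limma voom the values in PGR-A OE against control were 0.00338 for Bub1b, 0.0089 for Aurkb, 0.014 for Ccna2, 0.033 for Kif11, 0.048 for Cenpf, 0.058 for Cdk1, 0.067 for Mki67, 0.069 for Top2a and 0.071 for Birc5. In PGR-B OE against control voom gave 0.00258 for Ccnd1, 0.00821 for Mcm4, 0.018 for Mcm7, 0.042 for Cdc6 and 0.042 for Mcm5. Without the pair PGR-A OE 4 and control 4, chosen after seeing the data, PGR-A OE against control gave -0.00851 for Cdkn1b, 0.075 for Cenpe, 0.13 for Ccne2, 0.14 for Rrm2, 0.39 for Bub1b, 0.46 for Ccnb2, 0.48 for Bub1, 0.49 for Cenpf, 0.50 for Kif11, 0.54 for Mki67, 0.55 for Aurkb, 0.55 for Birc5, 0.57 for Ccna2, 0.58 for Ccnb1, 0.58 for Top2a and 0.59 for Cdk1.

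Replicate numbers did not pair the samples: deviations of libraries with the same number from their group means correlated between -0.25 and 0.18, so the replicate block is only an alternative, and 0 genes were called under it in any comparison. With the replicate block the signs that changed in PGR-A OE against control were 0.00249 for Cenpf, 0.013 for Cdk1, 0.017 for Kif11, 0.025 for Top2a, 0.028 for Mki67 and 0.048 for Birc5. In PGR-B OE against control the block gave 0.0038 for Cdc6 and 0.013 for Mcm5.

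Over the fits that left out 1 library, differences in PGR-A OE against control whose sign changed spanned these ranges. Aurka ran between -0.14 and 0.50, Aurkb between -0.27 and 0.43, Birc5 between -0.20 and 0.46 and Bub1 between -0.42 and 0.34. Bub1b ran between -0.25 and 0.35, Ccna2 between -0.26 and 0.43, Ccnb1 between -0.52 and 0.41 and Ccnb2 between -0.38 and 0.31. Ccnd1 ran between -0.048 and 0.18, Ccne1 between -0.091 and 0.22, Ccne2 between -0.34 and 0.067 and Cdc20 between -0.18 and 0.55. Cdk1 ran between -0.19 and 0.45, Cdkn1b between -0.048 and 0.059, Cenpf between -0.22 and 0.41 and Kif11 between -0.20 and 0.40. Mki67 ran between -0.19 and 0.45, Pcna between -0.071 and 0.21, Plk1 between -0.072 and 0.55 and Top2a between -0.20 and 0.49. Tpx2 ran between -0.15 and 0.55. In PGR-B OE against control the ranges were as follows. Aurka ran between -0.33 and 0.28, Aurkb between -0.48 and 0.17, Birc5 between -0.39 and 0.26 and Bub1 between -0.58 and 0.10. Bub1b ran between -0.55 and 0.053, Ccna2 between -0.49 and 0.17, Ccnb1 between -0.63 and 0.18 and Ccnb2 between -0.57 and 0.091. Ccnd1 ran between -0.11 and 0.12, Ccnd2 between -0.047 and 0.18, Ccne1 between -0.10 and 0.19 and Cdc20 between -0.41 and 0.30. Cdc6 ran between -0.18 and 0.33, Cdk1 between -0.34 and 0.26, Cdkn1b between -0.060 and 0.018 and Cenpe between -0.084 and 0.21. Cenpf ran between -0.45 and 0.18, Kif11 between -0.49 and 0.068, Mcm2 between -0.15 and 0.11 and Mcm4 between -0.077 and 0.13. Mcm5 ran between -0.16 and 0.28, Mcm6 between -0.18 and 0.18, Mcm7 between -0.14 and 0.23 and Mki67 between -0.39 and 0.24. Pcna ran between -0.26 and 0.070, Plk1 between -0.42 and 0.20, Rrm2 between -0.33 and 0.16 and Top2a between -0.35 and 0.33. Tpx2 ran between -0.41 and 0.29. Between PGR-B OE and PGR-A OE they were as follows. Bub1 ran between -0.39 and 0.00146, Ccnb1 between -0.40 and 0.11, Ccnd1 between -0.12 and 0.020 and Ccnd2 between -0.29 and 0.061. Ccne1 ran between -0.16 and 0.13, Cdkn1b between -0.081 and 0.025, E2f1 between -0.15 and 0.049 and Top2a between -0.33 and 0.018.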
